A study of Mus musculus with 8 samples.

Results

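Alveolar macrophages of the mouse lung are described here, as the cells that the authors' annotation calls AM, in mice exposed to cigarette smoke (CS) and in mice kept in room air (RA). Of 40,074 annotated cells, 418 were alveolar macrophages, with 178 cells from CS and 240 from RA. The 4 CS mice, named C2, C5, D2 and D5, gave 42, 40, 49 and 47 cells, and the 4 RA mice, named F1, F3, M1 and M3, gave 112, 44, 31 and 53 cells. The mouse, not the cell, was the unit of every comparison between CS and RA.

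Every mouse was a C57BL/6 Sftpc-CreERT2-mTmG animal. The Cre in this line is driven by the surfactant protein C promoter, so the reporter follows alveolar type 2 (AT2) cells and not macrophages. Both groups were given tamoxifen at 8 to 10 weeks of age, and littermates were then randomised to smoke from 3R4F research cigarettes for 6 hours a day on 5 days a week over 10 months or to room air over the same time. Lungs were taken one day after the last exposure, so the CS group holds 10 months of exposure together with the day after its end. Each group held 2 mice labelled male and 2 labelled female. Lungs were digested to single cells with collagenase/dispase and elastase. RNA made during the digestion cannot be told apart here from RNA made in the lung, and its part in the levels was not tested. CD45+ and CD45- cells were mixed at 10 to 90 percent before droplet sequencing, so the share of macrophages among all cells was set in part by that mix.

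Alveolar macrophages live on the airspace side of the alveolus, where they take up inhaled particles, microbes, dying cells and used surfactant. They are resident cells that renew themselves locally and are separate from the C1q-rich macrophages of the lung interstitium and from monocytes of the blood. When pattern recognition or cytokine receptors are engaged, NF-kB proteins are released from their inhibitor IkB-alpha and switch on genes for tumour necrosis factor, interleukin 1 and the chemokines that recruit neutrophils, and also the gene for IkB-alpha itself, which closes the loop.

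Whole libraries held 34,417,120 to 50,439,134 UMIs (unique molecular identifiers, each counting one captured transcript) in CS and 31,882,952 to 55,485,617 in RA. A level below is the number of transcripts of a gene per 10,000 transcripts of a cell, averaged over the alveolar macrophages of a mouse. Where whole cell types are set side by side without groups, it is the mean over all cells of the type. No cell barcode was shared between libraries among the alveolar macrophages, and 3 of their barcodes occurred in another library in a cell of any type. The labelled sex did not match the transcripts in CS: C2 and C5, labelled male, held Xist at 5.13 and 4.73 and Ddx3y at 0, while D2 and D5, labelled female, held Ddx3y at 0.982 and 0.936. In RA the labels and the transcripts matched. Single mice stood apart in some measures. D2 held more marker transcripts of AT2 cells, of club and ciliated cells and of erythroid cells. The summed level of 8 AT2 markers was 26.3 in D2, compared with 0.961 to 2.16 for the rest of CS and 1.16 to 6.82 for RA. The endothelial sum was instead highest in C2, at 9.17 against 8.27 in D2. F1 gave the most cells and differed in Chil3 and in the MHC class II gene Cd74, as given below. D5 had the deepest macrophages of CS and a mitochondrial share within the RA range, and without it 82 genes were called in place of 42. F1, D5 and M3 each lay far from the rest of their group in 3 of the named genes, and D2 in 2.

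The cells carried the identity that their label states. Chil3, a secreted chitinase-like protein of macrophages, had a level of 158 over all alveolar macrophages against 41.4 in classical monocytes, the next of 32 cell types. Ear2, a ribonuclease of the eosinophil family, was at 27.5 against 5.93 in non-classical monocytes. The scavenger receptor Marco was at 9.56, and no other type passed 0.0168. Ear1, Siglecf, Fabp1, Krt79, Plet1 and Itgax were also highest in these cells, while Car4 was second at 6.40 to aerocytes at 27.1. The complement genes C1qa, C1qb and C1qc, which define interstitial macrophages, were at 0.00185, 0.0152 and 0.00556, against 53.7 for C1qa in the cells labelled M. These values describe the annotation and were not tested, since the annotation used the same genes. They are means over the cells of all mice, so mice with more cells weigh more. In F1, which gave the most alveolar macrophages, Chil3 was at 273 in these cells and 237 in classical monocytes.

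At least 2 of the 3 markers Chil3, Ear2 and Marco were found in 412 of the 418 cells. Genes of other cells were present at low levels: Sftpc was at 2.7 against 1200 in AT2 cells, and the secretory gene Scgb1a1 was at 5.44. The reporter eGFP was at 0.881 against 72.3 in AT2 cells.

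Alveolar macrophages made up 4.05, 3.14, 2.97 and 3.88% of the immune cells in C2, C5, D2 and D5, and 13.9, 4.03, 2.998 and 5.56% in F1, F3, M1 and M3. On average this was 3.51% ± 0.532 (SD, n = 4) in CS and 6.62% ± 4.96 (SD, n = 4) in RA, with p = 0.2 in an exact permutation test (two-sided). The groups overlapped, and the RA mean rested on F1. As a share of macrophages and monocytes they made up 20.95% ± 1.61 in CS and 32.6% ± 12.4 in RA (SD, n = 4, exact permutation p = 0.0571). A design of 4 mice against 4 cannot give an exact two-sided p under 0.0286, which is 2 of the 70 ways to split the mice. No difference in abundance was therefore detectable beyond the spread of the RA mice.

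Macrophages of the CS mice were sequenced to a median of 4661, 5054, 3252 and 9325 UMIs in C2, C5, D2 and D5. In F1, F3, M1 and M3 the medians were 5082, 9917, 5410 and 7904 UMIs (exact permutation p = 0.343 for the difference of groups). The mitochondrial share of transcripts averaged 2.36, 2.33, 2.54 and 1.40% in CS and 1.42, 1.195, 1.35 and 1.47% in RA (exact permutation p = 0.0857). D5 was the only CS mouse within the RA range, and it was also the deepest of the CS mice.

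**Figure D1:**
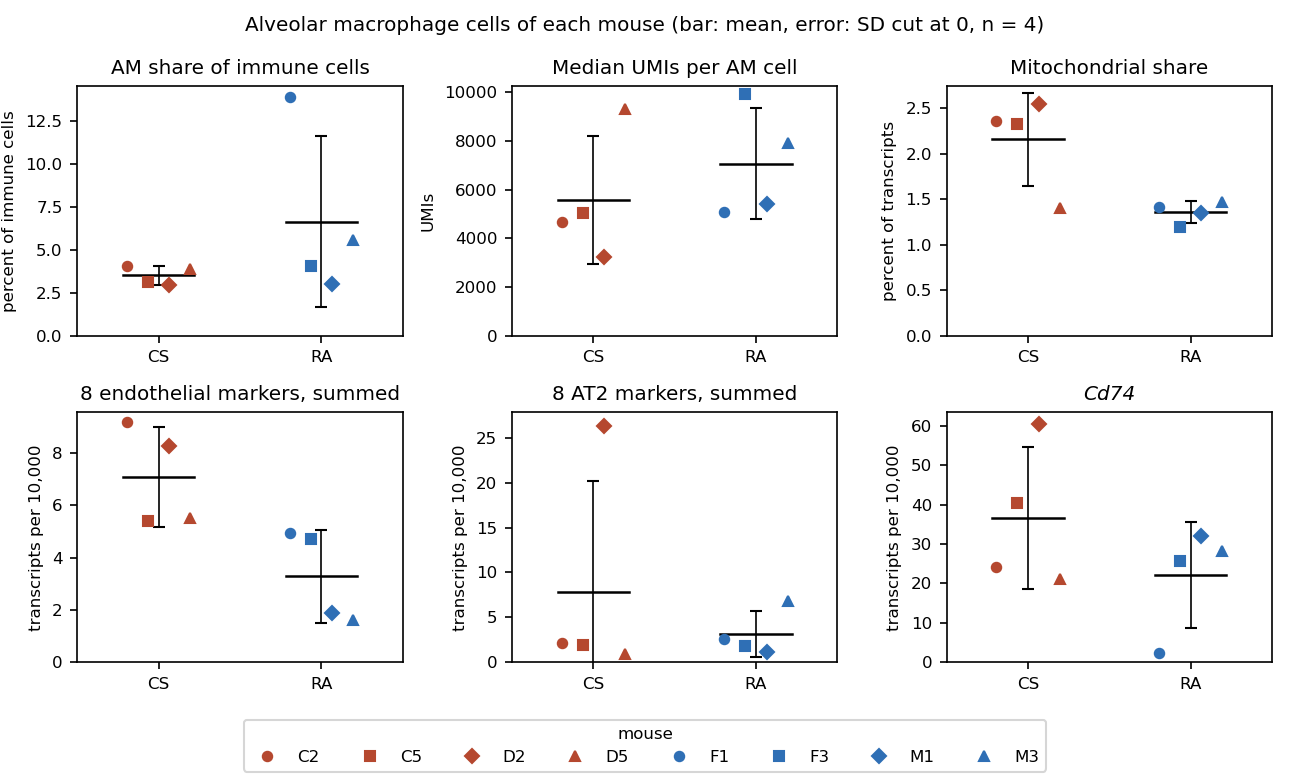
Share of immune cells, depth, mitochondrial share, summed markers and Cd74 of the alveolar macrophages of each mouse, with 1 point per mouse, the bar at the group mean and the error at 1 SD (n = 4). F1 stands above the other mice in its share of immune cells (13.9%) and low in Cd74 (2.26), and the mitochondrial share of D5 (1.40%) lies among the RA mice.

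Levels were then compared between CS and RA with limma, on log2(level + 1), over the 7650 genes whose transcripts reached 10% of the alveolar macrophages of CS or of RA. On this scale the change of a gene with a low level is understated. At an adjusted p under 0.05 (Benjamini-Hochberg), 42 genes were called, or 0.549% of those tested. Of these, 23 were lower in CS (0.301%) and 19 were higher (0.248%), and 757 genes (9.9%) had an unadjusted p under 0.05. Of the 7650 genes, 1094 (14.3%) reached 10% of cells in 1 group only, and 9 of the 42 calls were among them: Ptprm, Nfib, Pmp22, Psd3, Zfp791 and Cd93 through CS, where they were higher, and Cxcl10, Ereg and Gm6210 through RA, where they were higher. The filter admitted these 9 by the group in which they are high and so selects their direction, and their calls are given as a description. The other 33 called genes reached it in both groups. When every gene with any transcript was tested, Egr1 and Cxcl2 were the only 2 calls. The median log2 difference over all genes was -0.0040. A further measure that needs no model is whether the mice of the groups overlap: all 4 CS mice lay below all 4 RA mice for 197 genes (2.58%) and above them for 201 genes (2.63%).

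The lower genes were led by an immediate-early transcription factor and by genes of the NF-kB response, namely neutrophil chemokines, tumour necrosis factor, interleukin 1-alpha and 2 genes of the IkB family. The higher genes included mitochondrially encoded transcripts and a nuclear copy of one, the phagocytic bridging protein Mfge8, and genes with their highest levels in endothelial cells. Metallothioneins, antioxidant genes and genes of macrophage identity held no call with these settings. An unadjusted p under 0.05 was held by 8 of the 30 identity genes, against 9.9% of all genes tested.

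Calls depended on which mice were present. With each mouse left out in turn, 7 genes kept their call every time: Egr1, Cxcl2 and Nfkbia among the lower ones, and Gm28661, Mfge8, Gm23935 and Ptprm among the higher ones. Of these 7, Ptprm reached the filter through CS alone, with transcripts in 12.2% of CS cells and 3.64% of RA cells. Another 6 genes, Tnf, Il1a, Cxcl10, Ereg, F10 and Ccrl2, lost it only without C2, at adjusted p from 0.0611 to 0.0772 (limma), and the other 29 lost it without 2 or more of the mice. In total 35 genes were not called without C2, 28 without D2, 24 without C5, 20 without M3, 15 without F1, 13 without F3, 11 without M1 and 4 without D5.

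Egr1 encodes a zinc-finger transcription factor that is made within minutes of a stimulus. Its level was 3.42, 2.87, 3.55 and 1.83 in C2, C5, D2 and D5 and 12.0, 10.8, 10.5 and 13.5 in F1, F3, M1 and M3. No CS mouse came near the lowest RA mouse. The means were 2.92 ± 0.781 and 11.7 ± 1.34 (SD, n = 4), a 4.00-fold difference. The log2 difference was -1.71 (SE 0.172, limma adjusted p = 3.13e-05), and it stayed called in all 24 alternative settings, between -2.0 and -1.53.

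The same gene was also found in fewer cells. After each cell was thinned to 2000 UMIs, which left 390 cells, Egr1 was found in 27.03, 25, 33.3 and 14.9% of the CS cells and in 51.9, 56.8, 60.0 and 63.5% of the RA cells, mouse by mouse. The mean share was 25.1% in CS and 58.0% in RA (exact permutation p = 0.0286, the smallest this design allows), and 39.4% and 75.7% without thinning. Egr1 had already been called lower without overlap in the same cells, so this p is no separate support. Thinned in the same way, the share was 8.54% in 515 B cells and 50.2% in 584 ciliated cells, with medians of 4158 and 16184 UMIs before thinning against 5953 in the macrophages. Thinning left out 22 CS cells and 6 RA cells that were too shallow.

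No other immediate-early gene was called. Of 25 listed genes 24 were tested and 1, Egr1, was called, against 0.549% of all genes tested, with 19 of 24 lower in CS by sign, against 51.3% of all, and a list median of -0.12. Fos, a subunit of AP-1, was at 10.2 in CS and 7.42 in RA (log2 0.41, limma adjusted p = 0.546). Jun was at 4.75 and 5.27, Junb at 14.3 and 18.03, and Atf3 at 3.09 and 3.25. Egr2, a relative of Egr1, was at 1.21 and 2.33 (log2 -0.58, limma adjusted p = 0.150).

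**Figure D2:**
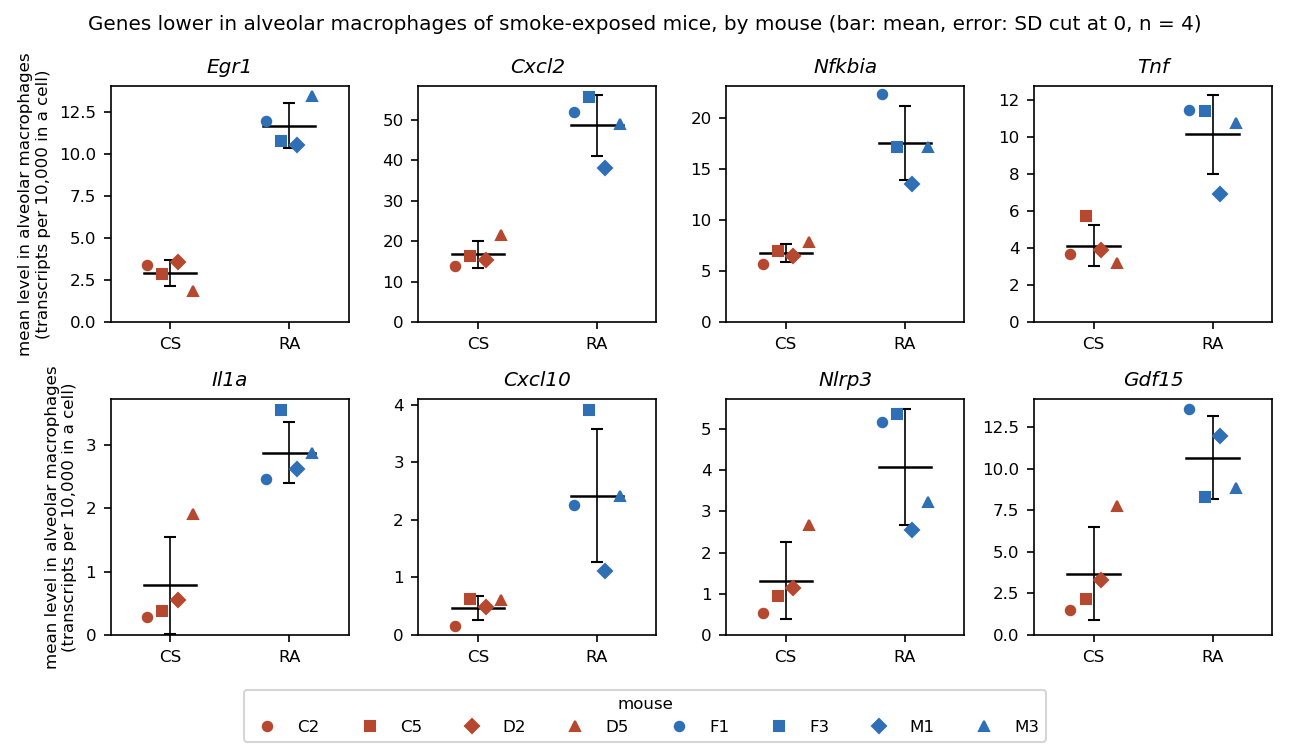
Levels of 8 genes that were lower in CS, in transcripts per 10,000, with 1 point per mouse, the bar at the mean of 4 mice and the error at 1 SD. CS and RA points are apart for Egr1, where CS ends at 3.55 and RA begins at 10.5, while D5 (7.75) comes close to the lowest RA mouse (8.31) for Gdf15.

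Among 41 listed cytokine, chemokine and NF-kB genes, 27 were tested and 8 were called, against 0.549% of all genes tested. All 8 were lower in CS, against 0.301% of all (Cxcl2, Nfkbia, Tnf, Il1a, Cxcl10, Nlrp3, Nfkbiz and Cxcl1). By sign 21 of the 27 were lower, against 51.3% of all genes tested, and the list median was -0.33 against -0.0040 for all genes. Of the 27 genes 4 reached the filter through RA alone, Cxcl10 among them.

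Some of these genes have a match to the NF-kB consensus just before their start. The windows shown are those of the lower genes with a match at their only annotated start, so they do not stand for all lower genes. Each line gives the 200 bases before the RefSeq start on the GRCm38.p6 assembly, 5′ to 3′ on the strand of the gene, with the matches in capitals. The windows are chr5:90903699-90903898 (plus strand) for Cxcl2, chr5:90891045-90891244 (plus strand) for Cxcl1, chr5:92348890-92349089 (minus strand) for Cxcl10 and chr12:55492648-55492847 (minus strand) for Nfkbia. The GENCODE starts of Cxcl2 and Cxcl1 lie inside their windows.
Cxcl2: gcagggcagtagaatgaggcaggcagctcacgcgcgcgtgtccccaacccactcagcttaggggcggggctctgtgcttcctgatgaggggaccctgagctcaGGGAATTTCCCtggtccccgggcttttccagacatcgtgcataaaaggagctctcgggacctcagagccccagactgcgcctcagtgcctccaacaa
Cxcl1: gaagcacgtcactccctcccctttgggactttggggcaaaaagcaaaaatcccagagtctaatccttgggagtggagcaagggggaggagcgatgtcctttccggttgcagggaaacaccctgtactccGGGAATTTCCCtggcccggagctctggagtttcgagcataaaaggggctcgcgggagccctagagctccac
Cxcl10: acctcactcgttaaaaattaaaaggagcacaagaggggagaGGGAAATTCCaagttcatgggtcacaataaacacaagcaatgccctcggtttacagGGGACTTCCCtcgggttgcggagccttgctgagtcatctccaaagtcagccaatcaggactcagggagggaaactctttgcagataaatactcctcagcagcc
Nfkbia: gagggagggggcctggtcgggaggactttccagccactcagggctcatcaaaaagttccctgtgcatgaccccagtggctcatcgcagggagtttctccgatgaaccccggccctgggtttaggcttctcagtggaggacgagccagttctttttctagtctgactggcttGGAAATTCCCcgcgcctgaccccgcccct
The NF-kB consensus was searched on both strands in the 250 bases before each start, and overlapping matches were allowed. In Cxcl2 the matches began 97 and 96 bases before the start and in Cxcl1 71 and 70 bases before it, each pair being overlapping words shifted by 1 base, the first on the strand of the gene and the second on the opposite strand. Cxcl10 had 2 separate matches, 159 and 103 bases before the start, and Nfkbia had 1, at 29 bases. Ccrl2 and Nlrp3 had 1 match each, at 56 and 186 bases, at 1 of 3 annotated starts of Ccrl2 and 1 of 2 of Nlrp3, and none at the other starts. Tnf, Il1a and Icam1, also lower in CS, had none in their windows.

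Of the 23 lower genes 16 had a promoter entry and 6 of those held a match, while 0 of the 8 higher genes with an entry did. The share was 5.56% over 6040 tested genes with an entry and 4.46% over 27,025 genes. Fewer than 80% of the called genes had an entry, so the shares of lower and higher genes are void as a comparison. A match is a word in the sequence and does not show that a factor was bound.

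Cxcl2 (chr5:90903871-90905938) encodes a chemokine that draws neutrophils through CXCR2. Its level was 13.9, 16.4, 15.3 and 21.6 in the CS mice and 51.9, 55.6, 38.0 and 48.9 in the RA mice. The groups were well apart, at 16.8 ± 3.35 and 48.6 ± 7.57 (SD, n = 4), or 2.89-fold. The log2 difference was -1.48 (SE 0.170, limma adjusted p = 0.000137), called in all 24 alternatives. Cxcl2 was found in 62.1% of the thinned CS cells and 80.7% of the thinned RA cells (exact permutation p = 0.0286), against 1.36% of B cells and 0.171% of ciliated cells, and in 64.3% and 85.8% without thinning. As for Egr1, these shares come from the cells in which the gene was called and are given as a description.

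Its neighbour Cxcl1 (chr5:90891241-90893115), a chemokine of the same receptor, was at 0.766, 0.206, 1.27 and 1.38 in CS and 1.53, 2.02, 4.89 and 3.93 in RA. The highest CS mouse lay just under the lowest RA mouse. The call (log2 -1.07, limma adjusted p = 0.0454) was lost without C2, C5, D2, M1 or M3, at adjusted p of up to 0.167, and held in 11 of 24 alternatives. Cxcl10 (chr5:92346638-92348889), an interferon-inducible chemokine that draws T cells, was at 0.158, 0.620, 0.483 and 0.613 in CS and 2.26, 3.92, 1.11 and 2.41 in RA. Its transcripts were in 6.96% of CS cells and 30.9% of RA cells, so it was tested through RA alone. The groups did not overlap, at 5.18-fold, but the call (log2 -1.17, limma adjusted p = 0.00641) was lost without C2 (adjusted p = 0.0611). The CC chemokines Ccl3, at 6.19 and 5.52, and Ccl4, at 2.98 and 2.45, held no call, with adjusted p of 0.920 and 0.751 (limma).

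Tnf (chr17:35199381-35202007), tumour necrosis factor, was at 3.66, 5.71, 3.92 and 3.19 in CS and 11.5, 11.4, 6.95 and 10.8 in RA. M1 was the lowest RA mouse and still lay above every CS mouse. The means were 4.12 ± 1.10 and 10.1 ± 2.15 (SD, n = 4), and the log2 difference of -1.12 (limma adjusted p = 0.00641) became -1.08 with an adjusted p of 0.0611 without C2. Tnf was found in 30.3% of thinned CS cells and 58.3% of thinned RA cells (exact permutation p = 0.0286), against 2.91% of B cells and 0.342% of ciliated cells, and in 49.6% and 75.0% without thinning. These shares too come from the cells of the call and are given as a description.

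Il1a (chr2:129299610-129309972), the interleukin 1-alpha precursor, was at 0.283, 0.375, 0.555 and 1.91 in CS and 2.46, 3.55, 2.61 and 2.87 in RA. D5 stood above the other CS mice and below all RA mice. The log2 difference was -1.2 (limma adjusted p = 0.00641, and 0.0611 without C2). Il1b, the other interleukin 1 gene, was at 1.02 in CS and 1.72 in RA, with no call (log2 -0.44, limma adjusted p = 0.471). Il6, at 0.238 and 0.333, was likewise not called (limma adjusted p = 0.768).

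Of 3 regulators of NF-kB, Nfkbia and Nfkbiz were called lower and Tnfaip3 was not called. Nfkbia (chr12:55489410-55492647), which encodes IkB-alpha, was at 5.74, 7.0, 6.49 and 7.87 in CS and 22.3, 17.2, 13.5 and 17.2 in RA. The CS mice lay in a narrow range below every RA mouse, at 6.77 ± 0.894 against 17.5 ± 3.63 (SD, n = 4). The log2 difference was -1.24 (SE 0.171, limma adjusted p = 0.0015), called in 23 of 24 alternatives. The exception was the test of every gene with any transcript, where the adjusted p was 0.0574. Nfkbiz, a nuclear member of the IkB family, was at 0.384, 1.74, 1.38 and 2.58 in CS and 5.64, 4.75, 3.23 and 2.82 in RA. Its call (log2 -1.06, limma adjusted p = 0.0418) was lost without C2, C5, D2, F1 or F3, at adjusted p of up to 0.146. Tnfaip3, the deubiquitinase A20 that ends NF-kB signalling, was at 1.71 and 3.36 and was not called (log2 -0.72, limma adjusted p = 0.0621).

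Nlrp3 (chr11:59541568-59566956), the sensor of an inflammasome that releases interleukin 1-beta, was at 0.536, 0.935, 1.14 and 2.66 in CS and 5.18, 5.36, 2.55 and 3.24 in RA. D5 lay above M1, so the groups overlapped. Its call (log2 -1.17, limma adjusted p = 0.018) was lost without C2, C5, D2 or F1, at adjusted p of up to 0.117. Icam1, an adhesion molecule for leukocytes, overlapped in the same way, at 1.30 ± 0.477 and 2.96 ± 0.801 (SD, n = 4, log2 -0.78, limma adjusted p = 0.0454), and lost its call without C2, C5, D2, F1, F3 or M3.

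Gdf15 (chr8:70629393-70632456), a secreted stress-response member of the TGF-beta superfamily, was higher in alveolar macrophages than in any other annotated type, at 8.14 against 2.47 in aerocytes. Its level was 1.52, 2.16, 3.33 and 7.75 in CS and 13.6, 8.31, 11.9 and 8.86 in RA. D5 nearly reached the RA mice, and in its lane, against M3, the log2 difference was -0.17, against -2.53, -1.10 and -2.04 in the other lanes. The pooled log2 difference of -1.46 (limma adjusted p = 0.0135) lost its call without C2, C5 or D2, at adjusted p of up to 0.0931.

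Ereg, which encodes the EGF receptor ligand epiregulin, was also highest in alveolar macrophages, where every other type was at or below 0.0864. It was at 0.358 ± 0.226 in CS and 1.56 ± 0.493 in RA (SD, n = 4, log2 -0.90, limma adjusted p = 0.00764), and lost its call without C2 (adjusted p = 0.0689). Ereg was tested through RA alone, with transcripts in 9.87% of CS cells and 25.8% of RA cells. F10, coagulation factor X, was at 1.34 ± 0.274 and 3.37 ± 0.891 (SD, n = 4, log2 -0.89, limma adjusted p = 0.013, and 0.0772 without C2). Ccrl2, a chemerin-binding receptor that does not signal like other chemokine receptors, was at 0.916 ± 0.459 and 2.60 ± 0.553 (SD, n = 4, log2 -0.93, limma adjusted p = 0.0135, and 0.0740 without C2).

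Hspa8 (chr9:40800984-40810087), the constitutive chaperone HSC70, was at 6.84, 7.26, 5.68 and 6.57 in CS and 8.96, 11.9, 15.6 and 16.4 in RA. The CS mice were close together and the RA mice spread out above them, at 6.59 ± 0.671 and 13.2 ± 3.45 (SD, n = 4). The log2 difference was -0.88 (limma adjusted p = 0.031), and the call was lost without C2, C5, D2, M1 or M3, at adjusted p of up to 0.138. Hspa8 was the only call among 33 chaperone genes tested of 34 listed, or 1 of 33 against 0.549% of all genes, and 30 were lower in CS by sign, against 51.3% of all, with a list median of -0.18. The HSP90 genes Hsp90aa1, at 2.90 and 4.58, and Hsp90ab1, at 15.5 and 21.5, were not called (limma adjusted p = 0.254 and 0.382). A processed copy, Gm6210, was also called lower (log2 -0.42, limma adjusted p = 0.0216), but 68.2% of its 25-base words occur in Hspa8, so reads of both may be split between them and its own level is uncertain. That call was lost without C2, D2, D5 or M3, and Gm6210 was tested through RA alone (4.25% of CS cells and 26.6% of RA cells).

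The remaining lower genes were Gm17749, Slfn2, Hivep3, Pstpip2, Pnrc1, Lima1 and L1cam, with log2 differences from -1.04 to -0.53, and each lost its call without C2, among others. Slfn2, a schlafen family gene of immune cells, was at 2.09 ± 0.533 in CS and 4.48 ± 0.453 in RA (SD, n = 4, log2 -0.84, limma adjusted p = 0.0134), and was not called without C2, C5 or D2. Gm17749, which has no described function, was at 0.715 ± 0.446 and 2.59 ± 1.24 (SD, n = 4, limma adjusted p = 0.0135), with the same mice deciding its call.

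Each sequencing lane held 1 CS and 1 RA mouse, so the difference could be read within lanes. Egr1 differed by -1.55, -1.37, -1.57 and -2.35 on the log2 scale in lanes 1 to 4, and Cxcl2 by -1.83, -1.80, -1.17 and -1.14. Nfkbia differed by -1.79, -1.28, -0.86 and -1.03, and Tnf by -1.42, -1.33, -0.24 and -1.49. The groups of these genes did not overlap, so the CS mouse had to be the lower one in each lane. The direction within lanes is therefore no separate test, and the sizes are given as a description. Lane 3 (C5 and M1) held the smallest difference in Tnf.

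**Figure D3:**
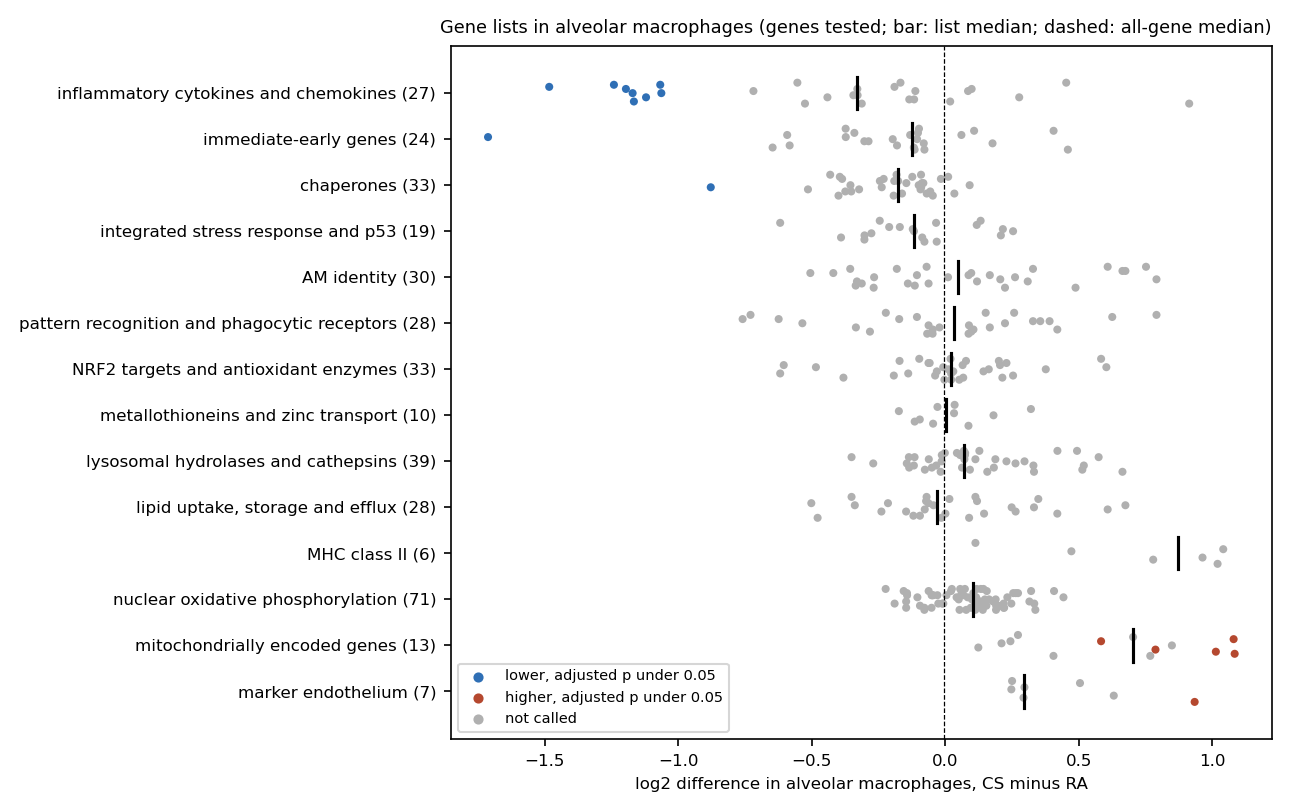
Log2 differences (CS minus RA) of the tested genes of selected lists in alveolar macrophages, with 1 point per gene, a bar at the list median and a dashed line at the median of all genes (-0.0040). The cytokine and chemokine list lies left of the line at -0.33, and the mitochondrially encoded list, chosen after the values were seen, lies right of it at 0.70.

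Among the higher genes, Mfge8 kept its call with every mouse left out. It encodes lactadherin, which bridges phosphatidylserine on dying cells to integrins on the phagocyte. Its level was 1.14, 1.80, 2.65 and 0.950 in CS and 0.150, 0.280, 0.240 and 0.196 in RA. The lowest CS mouse lay well above the highest RA mouse, at 7.55-fold between the means of 1.63 ± 0.767 and 0.216 ± 0.0561 (SD, n = 4). The log2 difference was 1.07 (SE 0.158, limma adjusted p = 0.00233), called in 22 of 24 alternatives. In macrophages with at least 3000 UMIs it was 0.57 (limma adjusted p = 0.275). It was found in 28.7% of the CS cells and 14.2% of the RA cells. Pericytes held the highest level of Mfge8, at 14.1, and the part of RNA from other cells in the value here was not tested. In macrophages with at most 1 of 8 endothelial markers the log2 difference was 1.29 (limma adjusted p = 0.000128).

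Mitochondrially encoded genes include subunits of the respiratory chain. The list was chosen after the values were seen, so its counts are given as a description. Of 37 listed genes 13 were tested and 5 were called, all higher in CS, against 0.248% of all genes. By sign all 13 were higher in CS, against 48.7% of all genes, with a list median of 0.70. Their summed level was 236, 233, 254 and 140 in CS and 142, 120, 135 and 147 in RA, so D5 lay within the RA range. mt-Cytb, a subunit of complex III, was at 32.5, 25.2, 31.1 and 17.1 in CS and 11.9, 12.3, 10.7 and 14.5 in RA (log2 1.01, limma adjusted p = 0.0135). mt-Nd4, of complex I, was at 21.3 ± 6.32 and 9.23 ± 1.51 (SD, n = 4, log2 1.08, limma adjusted p = 0.0135), and mt-Co1, of complex IV, at 10.4 ± 1.82 and 5.57 ± 0.593 (SD, n = 4, log2 0.79, limma adjusted p = 0.0322). mt-Nd5 was called with overlapping groups (log2 1.08, limma adjusted p = 0.0324), and so was mt-Atp8 without overlap (log2 0.58, limma adjusted p = 0.039). All 5 calls were lost without C2, without C5 and without D2, that of mt-Co1 also without F3, M1 or M3, that of mt-Nd5 also without F1, F3 or M1, and that of mt-Atp8 without any 1 of the 8 mice.

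Gm28661 (chr1:24614885-24615565) is a nuclear pseudogene on chromosome 1, and all 657 of its 25-base words occur in mt-Co2. Its value can therefore not be told apart from that of the mitochondrial gene. The level was 7.79, 4.16, 6.20 and 4.33 in CS and 1.54, 1.36, 1.498 and 2.44 in RA, with no overlap (log2 1.27, SE 0.181, limma adjusted p = 0.00185), and it was called in 23 of 24 alternatives. The exception was the test of every gene with any transcript (adjusted p = 0.123). Of 71 nuclear genes of oxidative phosphorylation tested, 0 were called by limma and 5 had an unadjusted p under 0.05, against 9.9% of all genes. By sign 51 of 71 were higher in CS, against 48.7% of all genes, with a list median of 0.10. The difference between the nuclear and the mitochondrial list was not tested. A high mitochondrial share is also used as a sign of damaged cells, and cells with a high share had been removed before deposit. The part of cell quality in these differences was not tested.

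Gm23935 (chr16:11144125-11144181) is annotated as a miRNA gene and Peak1 (chr9:56201126-56418067) as a pseudokinase gene. Gm23935 was at 10.1, 19.2, 17.96 and 9.26 in CS and 3.13, 1.06, 7.80 and 2.09 in RA (log2 1.89, limma adjusted p = 0.0065). This call was lost in 4 of 23 alternatives, in sums of counts per mouse (limma adjusted p = 0.0661), in cells with at least 3000 UMIs (0.0802), in eBayes without trend (0.0638) and when every gene with any transcript was tested (0.312). Peak1 was at 11.6, 16.7, 21.02 and 7.87 in CS and 2.73, 1.504, 9.15 and 2.98 in RA, where M1 lay above D5 (log2 1.71, limma adjusted p = 0.0135). The order of the mice was similar for the 2 genes but not the same, since C5 and D2, and F1 and M3, changed places. M1 was the highest RA mouse for both. The genes lie on different chromosomes, and 0 of the 33 words of 25 bases of Gm23935 occur in the annotated transcripts of Peak1. Unspliced reads were also counted in these data. Peak1 overlaps another miRNA entry on its strand, Gm24270, and its unspliced sequence was not compared. Whether the values share reads was therefore not tested. Peak1 lost its call without C2, C5 or D2.

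Several of the rest, namely Ptprm, Calcrl, Prickle2, Epas1, Cd93, Nfib, Apbb2 and Psd3, had their highest level in an endothelial type. Of all 7650 genes tested, 4545 (59.4%) were higher in at least 1 endothelial type than in alveolar macrophages, and 671 were highest in alveolar macrophages. The first held for 14 of the 19 higher genes and 6 of the 23 lower genes, and the second for 0 and 2 genes, respectively. The 14 include Gm28661, mt-Cytb, mt-Nd4, Mfge8 and Peak1, which were highest in types other than endothelium. These counts are given as a description. Ptprm, a receptor tyrosine phosphatase at cell contacts, was at 1.65, 0.914, 2.66 and 0.801 in CS and 0.199, 0.223, 0 and 0.0361 in RA (log2 1.12, limma adjusted p = 0.00408), against 25.02 in general capillary cells. Calcrl, the receptor of adrenomedullin, was at 1.98 ± 0.591 and 0.575 ± 0.410 (SD, n = 4, log2 0.93, limma adjusted p = 0.0135), and Prickle2 at 2.52 ± 0.722 and 0.842 ± 0.509 (SD, n = 4, log2 0.95, limma adjusted p = 0.0135). Epas1, which encodes HIF-2-alpha, rose by 0.76 (limma adjusted p = 0.0494) and Cd93 by 0.62 (limma adjusted p = 0.0426) on the log2 scale. The call of Calcrl was lost without C2, D2 or M3, of Prickle2 without C2, C5 or M3, of Epas1 without C2, C5, D2, F1, M1 or M3, and of Cd93 without any mouse but C5. Ptprm and Cd93 were tested through CS alone, where Cd93 was found in 26.6% of cells against 8.89% in RA.

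The other higher genes were Nfib, Pmp22, Apbb2, Psd3 and Zfp791, with log2 differences from 0.48 to 0.77. Each lost its call without C2 and without M3, among others, and all but Apbb2 were tested through CS alone, with transcripts in 12.9 to 16.03% of CS cells and 5.59 to 7.24% of RA cells. Nfib, a transcription factor of the nuclear factor I family, was at 0.645 ± 0.173 in CS and 0.129 ± 0.0968 in RA (SD, n = 4, log2 0.54, limma adjusted p = 0.0208), and was highest in general capillary cells, at 12.0.

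The summed level of endothelial markers moved with these genes, while the share of macrophages with 2 or more of the markers did not. Without thinning that share was 30.6% in CS and 32.7% in RA (exact permutation p = 0.829). It was largest in D5 (53.2%) and F3 (45.5%), the mice with the deepest macrophages of their groups. The summed level of 8 endothelial markers was 9.17, 5.39, 8.27 and 5.52 in CS and 4.94, 4.69, 1.88 and 1.61 in RA, and the groups did not overlap. Calcrl is part of that sum, at a mean of 1.98 in CS and 0.575 in RA, so the sum is not separate from the genes above. Of the 8 markers 7 were tested, 3 of them through CS alone, and 1 was called, Calcrl, against 0.549% of all genes. In the 280 macrophages in which at most 1 of these markers was found, the log2 difference was 0.10 for Ptprm (limma adjusted p = 0.701), 0.08 for Prickle2 (0.914), 0.10 for Calcrl (0.818), 0.25 for Epas1 (0.615) and 0.57 for Cd93 (0.179). None of these 5 was called there. Calcrl is itself one of the markers, so its value there was set in part by the choice of cells. The choice removes cells that carry endothelial transcripts, so it bears on the other genes with high endothelial levels too. Their loss of a call there is given as a description. In the same cells Egr1 differed by -1.75 and Cxcl2 by -1.62, and 20 of the 23 lower and 10 of the 19 higher genes were still called.

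Of the genes of macrophage identity, all 30 listed were tested and 0 were called. An unadjusted p under 0.05 was held by 8 of the 30, against 9.9% of all genes tested. By sign 16 were higher in CS and 14 lower, with a list median of 0.05. Chil3 was at 121, 136, 109 and 126 in CS and 273, 111, 96.6 and 113 in RA (log2 -0.14, limma adjusted p = 0.895), and 0.20 without F1. Marco was at 12.5, 19.6, 6.62 and 12.3 in CS and 9.59, 5.04, 8.43 and 4.23 in RA (log2 0.79, limma adjusted p = 0.235, called in 1 of 24 alternatives), and Ear2 at 34.4 ± 13.7 and 24.3 ± 11.1 (SD, n = 4, log2 0.49, limma adjusted p = 0.646), where Ear2 ranged from 0.18 without F3 to 0.85 without D5 and was 0.32 without C2. The lipid gene Fabp5, at 3.88 and 2.19, had the smallest p of the list and no overlap (log2 0.61, limma adjusted p = 0.0843, called in 1 of 24 alternatives). Lpl, lipoprotein lipase, was at 28.7 and 18.1 (limma adjusted p = 0.105).

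Among antigen presentation genes, the differences of Cd74 and H2-Aa depended largely on F1. Of 10 listed MHC class II genes 6 were tested, 0 were called and all 6 were higher in CS by sign, against 48.7% of all genes. An unadjusted p under 0.05 was held by 2, against 9.9% of all genes, and the list median was 0.87. Cd74, the invariant chain, was at 24.3, 40.4, 60.5 and 21.02 in CS and 2.26, 25.6, 32.0 and 28.3 in RA (log2 1.02, limma adjusted p = 0.509). Without F1 the difference was 0.22. H2-Aa went from 1.04 (limma adjusted p = 0.420) to 0.41 without F1.

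Metallothioneins bind zinc and are induced by metals and oxidants. The study also profiled human lungs, and the mouse counterparts of genes it names for macrophages or AT2 cells there were compared. Mt1 was at 23.8, 27.6, 20.2 and 22.9 in CS and 28.3, 16.1, 23.5 and 22.1 in RA (log2 0.09, limma adjusted p = 0.917). Mt2 was at 3.66, 5.29, 5.30 and 5.90 and at 8.46, 4.06, 6.26 and 4.94 (log2 -0.17, limma adjusted p = 0.829). The groups overlapped for both. Either gene was found in 88.4% of thinned CS cells and 92.5% of thinned RA cells (exact permutation p = 0.257), against 5.63% of B cells and 90.6% of ciliated cells, and in 96.6% and 99.2% without thinning.

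Hmox1, the heme-degrading enzyme and a target of the antioxidant factor NRF2, was at 2.83, 3.51, 3.17 and 10.3 in CS and 14.4, 5.82, 4.34 and 6.76 in RA (log2 -0.61, limma adjusted p = 0.520). The difference rested on single mice, at -0.30 without F1 and -0.97 without D5. Of 33 NRF2 targets and antioxidant enzymes tested, 0 were called and 6 had an unadjusted p under 0.05. The share of all genes tested at that p was 9.9%, and the list median was 0.02. Sod1 had the smallest p among them, at 1.95 ± 0.405 in CS and 0.968 ± 0.228 in RA (SD, n = 4, log2 0.58, limma adjusted p = 0.0621), and was called in 4 of 24 alternatives, with an adjusted p down to 0.0114. Other mouse counterparts held no call: Peli1 was at 2.34 and 3.21 (limma adjusted p = 0.464), Cdc42 at 10.4 and 10.2 (0.975), Cd68 at 3.44 and 3.38 (0.969) and Nupr1, which the study names for AT2 cells, at 0.523 and 0.559 (0.948). Thbs1, at 0.391 and 0.368, was found in too few cells to be tested.

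Transcripts of at least 3 of 10 cell cycle genes were found in 0, 2.78, 2.78 and 4.26% of thinned CS cells and in 0.926, 2.27, 3.33 and 0% of thinned RA cells (exact permutation p = 0.571). The 0 in C2 (37 cells) and in M3 (52 cells) allow shares of up to 8.11% and 5.77%, counting error only. On average this was 2.45% (CS) and 1.63% (RA), against 0.194% of B cells, and 3.39% and 1.60% without thinning. In C2 the share was 4.76% without thinning. The 7 cells that the annotation labels as cell cycle, of any type, were not part of these counts. No difference in cycling was detectable with these numbers of cells.

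Classical monocytes (671 cells) and neutrophils (1411 cells) of the same mice were used to ask whether the difference between CS and RA was itself different in alveolar macrophages. The 3 comparisons share their mice, so values are given side by side, and the test was made on the difference between cell types within each mouse. In monocytes 0 of 6995 genes were called (713, or 10.2%, at an unadjusted p under 0.05), and in neutrophils 0 of 2756 (368, or 13.4%, at an unadjusted p under 0.05).

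Egr1 was low in monocytes, at 0.718 ± 0.421 in CS and 0.381 ± 0.148 in RA (SD, n = 4, log2 0.29, limma adjusted p = 0.508). In neutrophils it was at 2.05 ± 0.884 and 1.37 ± 0.288 (SD, n = 4, log2 0.33, limma adjusted p = 0.419). The macrophage difference minus the monocyte difference was -2.0 (95% CI -2.51 to -1.5, limma adjusted p = 0.00232), and minus the neutrophil difference it was -2.04 (95% CI -2.45 to -1.63, limma adjusted p = 1.75e-05). Egr1 was the only gene called among 6249 genes against monocytes (0.016%) and among 2506 genes against neutrophils (0.0399%). At an unadjusted p under 0.05 there were 571 (9.14%) and 269 (10.7%). Against monocytes the call was lost without C5 (-1.85, adjusted p = 0.0613), and against neutrophils it held with each mouse left out. From RA levels of 0.381 and 1.37, a fall as large as the -1.71 of the macrophages cannot appear on the log2(level + 1) scale. The size of both differences was therefore set in part by the low level of Egr1 in these cells.

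Cxcl2 was at 6.67 and 26.1 in monocytes (log2 -1.41, limma adjusted p = 0.404), where F1 alone was at 68.7 and the difference without it was -0.79, and at 97.3 and 155 in neutrophils (log2 -0.67, limma adjusted p = 0.206). Tnf was at 1.18 and 3.72 in monocytes (log2 -1.13, limma adjusted p = 0.0870) and at 4.20 and 8.08 in neutrophils (log2 -0.84, limma adjusted p = 0.191). Nfkbia was at 7.80 and 18.2 in monocytes (log2 -1.12, limma adjusted p = 0.117) and at 38.8 and 66.9 in neutrophils (log2 -0.83, limma adjusted p = 0.180). None passed the threshold there, and all 3 had a lower mean in CS in both cell types.

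For these genes the difference between macrophages and monocytes did not pass the test. It was -0.07 for Cxcl2 (95% CI -1.05 to 0.91), or -0.66 without F1 and 0.36 without M3, 0.01 for Tnf (95% CI -0.44 to 0.45) and -0.12 for Nfkbia (95% CI -0.45 to 0.21). Against neutrophils Cxcl2 differed by -0.81 (95% CI -1.24 to -0.38), which did not pass correction (limma adjusted p = 0.181), Tnf by -0.29 (95% CI -0.79 to 0.22) and Nfkbia by -0.41 (95% CI -0.90 to 0.08). The called mitochondrially encoded genes and Gm28661 also had a higher CS mean in monocytes, with no call. Their log2 differences there ran from 0.05 for mt-Atp8 to 0.74 for mt-Cytb, with 0.68 for Gm28661. Macrophages minus monocytes, the differences ran from 0.27 for mt-Cytb (95% CI -0.27 to 0.81) to 0.74 for mt-Nd5 (95% CI 0.23 to 1.25). None passed correction.

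Cells labelled M, the interstitial macrophages, held 3, 14, 14 and 7 cells in the CS mice and 29, 15, 11 and 8 in the RA mice, too few for a test. Their Egr1 level was 10.8 in CS and 9.12 in RA and their Cxcl2 level 43.6 and 106, given as a description.

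**Figure D4:**
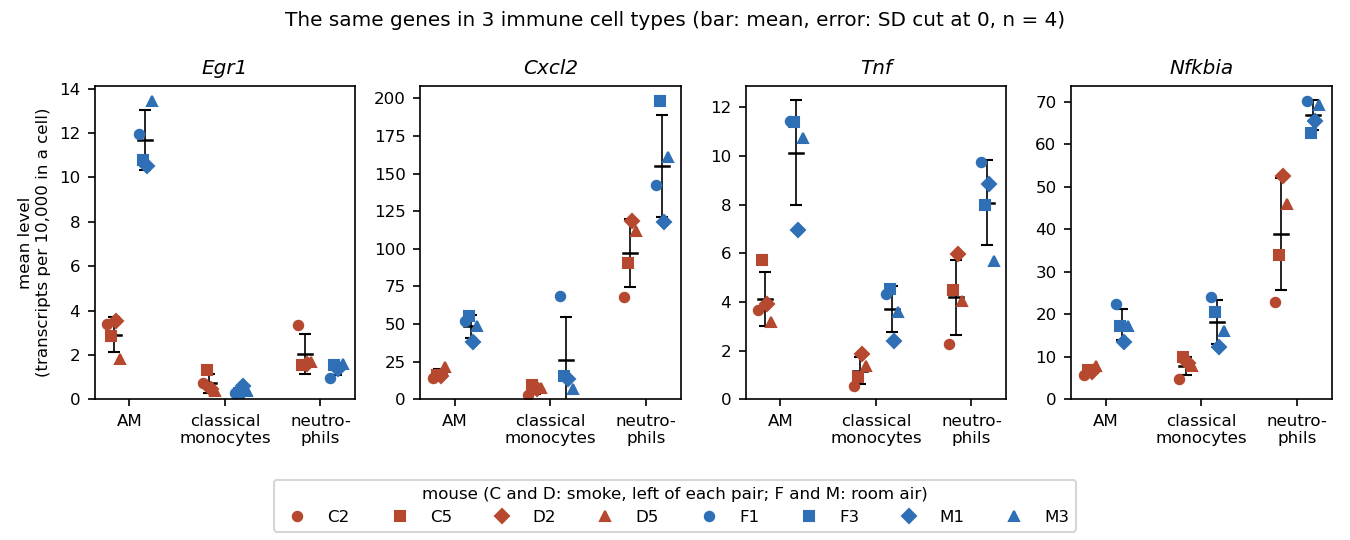
Levels in alveolar macrophages, classical monocytes and neutrophils, in transcripts per 10,000, with 1 point per mouse, the bar at the mean of 4 mice and the error at 1 SD. Egr1 is apart between CS and RA in macrophages (2.92 against 11.7) and near 0.718 and 0.381 in monocytes, while Nfkbia has a lower CS mean in each cell type.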

How the data were processed

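Single-cell 3′ libraries (10x Genomics, v3 chemistry) of the lungs of 8 mice, 4 CS and 4 RA, were aligned by the authors with STAR 2.7.3a and STARsolo to GRCm38.p6 with the GENCODE M22 annotation and the eGFP and tdTomato transcripts. The deposited values are estimated counts: the authors removed free RNA with SoupX, so that 1.34% of the values above 0 in alveolar macrophages were whole numbers (tolerance 1e-06), and no count model was used. Free RNA left after this step, or too much removed, would move low levels of genes from other cell types. Cells with few transcripts, few unspliced transcripts or a high mitochondrial share had been removed by the authors. Cell types are the deposited annotation, from which 1025 multiplets and 7 cells labelled as cell cycle were left out (40,074 of 41,106 cells kept).

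Each cell was scaled to 10,000 and averaged per mouse, or over all cells of a type where levels of whole types are given. Python 3.11.15 (numpy 2.4.6, pandas 2.3.3, scipy 1.17.1) and R 4.3.3 were used. Genes whose transcripts reached 10% of the alveolar macrophages of CS or of RA (mean over mice) were tested with limma 3.58.1 (lmFit and eBayes with trend, two-sided, no covariate) on log2(level + 1), with Benjamini-Hochberg adjustment over all genes tested and a threshold of 0.05. Differences between cell types were tested on the within-mouse difference of the log2 levels in mice with at least 20 cells of both types. Single values were compared with exact two-sided permutation tests over 70 assignments. Replicates are separate mice. Shares of cells were computed after thinning to 2000 UMIs.

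Gene positions are from GENCODE M21 and promoters from RefSeq, both on GRCm38.p6.

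Named genes are the markers, mouse counterparts of genes that the study names for human macrophages or, for Nupr1 and Cd74, AT2 cells, up to 10 called genes in each direction with the largest difference and no overlap, called members of each list (or the one with the smallest p) and the 5 smallest p of each difference between cell types. Other called genes are named so that all 42 are accounted for, and these, with the uncalled members beside them, were chosen after their values were seen. For 2 lists the gene with the smallest p is not reported here. The cells and gene lists were chosen with earlier results of these data known. The neutrophil comparison, the monocyte value without F1 and the list of mitochondrially encoded genes were added after the data were seen. So were the settings on endothelial markers, deep cells and scaling without mitochondrial and ribosomal RNA genes, where Gm23935 was counted as ribosomal. The shares of cells with Egr1, Cxcl2 and Tnf were not among the planned tests. Replicates were numbered in accession order, which pairs no mice, and lanes were read from the labels. The other alternatives concerned pseudocounts, filters, scaling, summing, cell numbers, lane, labelled sex and mice left out.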

Additional observations from a re-analysis of the deposited data

Results flagged for a closer look

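The difference between CS and RA in Egr1 was itself different in alveolar macrophages, at -2.0 on the log2 scale against classical monocytes and -2.04 against neutrophils, each by a limma test of the difference between cell types. The level of Egr1 in monocytes and neutrophils was too low for a fall of the macrophage size to appear on this scale.

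Some single mice lay far from the other 3 of their group. In Dixon's test 13 of 152 groups of 4 held such a mouse, where chance gives about 1 in 20, or 7.6. In F1 Chil3 was at 273 against 96.6 to 113 in the other RA mice, Ftl1, the ferritin light chain, at 26.6 against 35.7 to 37.4, and Hif1a at 0.981 against 0.510 to 0.537. Chil3 in F1 was also high in other cells, at 237 in classical monocytes against 5.74 to 30.5 in the other RA mice and at 89.0 in neutrophils against 0.336 to 1.81.

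D5 held Hmox1 at 10.3 against 2.83 to 3.51 in the other CS mice, Il1a at 1.91 against 0.283 to 0.555 and Gm17749 at 1.38 against 0.418 to 0.534. In D2 the surfactant gene Sftpa1 was at 3.68 against 0.191 to 0.603 and the globin gene Hbb-bs at 12.4 against 0.246 to 0.316. M3 held Peli1 at 3.77 against 2.93 to 3.07 in the other RA mice, Gm28661 at 2.44 against 1.36 to 1.54 and Rgcc at 2.32 against 1.23 to 1.40. In M1 Tnf was at 6.95 against 10.8 to 11.5, and in F3 Thbs1 was at 1.06 against 0.0468 to 0.206. What sets these mice apart was not tested.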

How the results depend on the processing

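All 42 called genes kept their direction wherever they were tested. The number of calls was 2 when every gene with any transcript was tested (both among the 42), 23 without the trend in eBayes (19 among the 42), 73 with lane as a block (40), and 73 with labelled sex as a term (42), though that label did not match the transcripts in CS. It was 36 after thinning (27 among the 42) and 30 in cells with at least 3000 UMIs (27). Without each mouse in turn it ranged from 8 (C2 left out) to 82 (D5 left out), with 20 without C5, 14 without D2, 28 without F1, 34 without F3, 47 without M1 and 28 without M3. The remaining settings gave 29 to 63 calls. With a pseudocount of 0.5 the test against monocytes called 3 genes (Egr1, Fmnl2 and Cd93), and it called 0 to 2 with mice left out (0 without C5, 2 without F3 or M1). Against neutrophils leaving out mice gave 1 to 12 calls (5 without D5, 12 without M1). The difference from cells labelled M could not be fitted, since F1 alone had at least 20 of them.

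No called gene turned its sign. Uncalled genes near 0 did. With each mouse left out Chil3 ranged from -0.30 to 0.20, Mt1 from -0.057 to 0.20, Cdc42 from -0.041 to 0.055, Cd68 from -0.029 to 0.052, Nupr1 from -0.078 to 0.018, Tiparp from -0.41 to 0.080, Esyt2 from -0.085 to 0.053 and tdTomato from -0.087 to 0.018. Chil3 turned without F1, and Mt1, Cdc42, Cd68 and Nupr1 without F3. Cd68 was -0.063 in summed counts, -0.013 with equal numbers of cells, -0.014 in cells with 2 of 3 markers and -0.13 after thinning. Mt2 was 0.0010 in summed counts and Nupr1 0.0066 in cells with at least 3000 UMIs. With equal numbers of cells Sftpa1 was -0.042, Gsn -0.0043 and tdTomato 0.096, which was 0.034 after thinning. The cause was not tested. With 31 to 112 cells a mouse, levels under about 1 transcript per 10,000 rest on few transcripts.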

Other observations

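The other gene lists held no call by limma, and are given with their number of genes at an unadjusted p under 0.05. The share of all genes tested at that p was 9.9%. Among MHC class I genes (15 tested, 3 at that p) the median log2 difference was 0.20, with B2m, the shared light chain, at 25.3 in CS and 15.9 in RA (log2 0.61, or 0.41 without D2, limma adjusted p = 0.242 with all mice). The summed level of this list was 96.4 in D2 and 49.8 to 57.0 in the other CS mice, against 38.6 to 52.6 in RA. Cell cycle genes (11 tested, 2 at that p) had a median of 0.21, with Mcm2 at 0.276 and 0.0760, and interferon-stimulated genes (14 tested, 3 at that p) a median of 0.14, with Ly6a at 0.771 and 0.318. The summed level of the interferon list was 21.9 in D2, 9.69 to 11.96 in the other CS mice and 6.65 to 11.8 in RA. Lysosomal hydrolases (39 tested, 9 at that p) had a median of 0.07. In the list of matrix metalloproteinases and their inhibitors (7 tested, 3 at that p) the median was -0.14.

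Clec4d had the smallest p of the phagocytic and pattern recognition receptors (28 tested, 10 at an unadjusted p under 0.05, median 0.03), at 0.562 and 1.56 (limma adjusted p = 0.052). The LPS co-receptor Cd14 had the smallest p of the interstitial macrophage and monocyte genes (10 of 26 tested, 4 at that p, median -0.12), at 1.22 and 2.81 with no overlap (limma adjusted p = 0.0533). Spp1, osteopontin, was at 8.07 and 3.99 (log2 0.91, limma adjusted p = 0.0541). Cd14 was called in 11 of 24 alternatives (adjusted p down to 0.00911) and Clec4d in 7 of 24 (down to 0.00944). In the integrated stress response list (19 tested, 4 at that p, median -0.12) the cystine transporter Slc7a11 was at 0.839 and 1.78 (limma adjusted p = 0.132).

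The other lists are given by their gene with the smallest p, CS first: Slc39a2 at 0.932 and 0.532, Tiparp at 2.19 and 2.34, Insig1 at 0.661 and 1.01, Sqstm1 at 5.41 and 8.89, C5ar2 at 0.131 and 0.416, Ftl1 at 18.6 and 33.9, Nr1d2 at 0.448 and 0.164, Nfil3 at 1.01 and 1.21, Fkbp5 at 0.673 and 1.60, Hif1a at 0.277 and 0.635, Ndufa11 at 1.84 and 1.07, Pex11a at 0.811 and 0.402, Scgb3a2 at 0.550 and 0.263 (log2 0.28, or 0.14 without D2), Gsn at 1.17 and 0.886 and S100a8 at 0.818 and 0.450. The lists of B cell, T and NK cell and dendritic markers had no gene that could be tested, with summed levels of at most 1.37, 1.26 and 0.520 in any mouse. Rgcc, at 3.25 and 1.58, Fmnl2, at 0.575 and 0.135, and Cytip, at 2.95 and 4.85, were among the smallest p of the comparisons between cell types. Of the genes named here, Rgcc was called in 7 of 24 alternatives, Ftl1 in 4 of 24, Fmnl2 in 4 of 23, and Slc7a11 and Cytip in 1 of 24 each.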
